A study of Rattus norvegicus with 24 samples.

Results

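The genes described here are the matrix metalloproteinases (Mmp), the tissue inhibitors of metalloproteinases (Timp), and the ADAM, ADAMTS and ADAMTS-like genes of the rat. They were chosen by symbol alone, as every gene whose symbol starts with Mmp, Timp, Adam, Adamts or Adamtsl followed by a number. The rule found 78 of the 22864 genes in the deposited table, and 69 of them have values, against 20506 genes with values in all. Total RNA was sequenced from the left ventricle (LV), the adrenal gland (AG) and the superior cervical ganglion (SCG) of 24-week-old rats. The 2 strains are SHR, the spontaneously hypertensive rat, and WKY, the Wistar-Kyoto rat. Each of the 6 groups holds 4 libraries, 24 in all, and the labels name no treatment. SHR develops high blood pressure and cardiac hypertrophy without an induced lesion, and WKY is the strain usually kept as its normotensive control. The strains differ across the genome, so a strain difference is not the effect of a single allele or of blood pressure alone. The labels do not say whether a library is 1 rat or a pool, or whether the 3 tissues came from the same rats. The p-values therefore cover the variation among these libraries, which may be technical.

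Metalloproteinases of these families carry a catalytic zinc ion, and most are made as inactive precursors that convertases or other proteases must cut. Secreted and membrane-type MMPs degrade collagens and other matrix proteins, ADAMs release the outer parts of membrane proteins such as growth factors and cytokines, and ADAMTS enzymes cut procollagens and large proteoglycans. TIMPs block the active site of most MMPs, and Timp3 also blocks several ADAM and ADAMTS enzymes. ADAMTS-like proteins have the matrix-binding parts of ADAMTS but no protease domain. In the heart these genes are best known from the remodelling of the matrix under pressure load.

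By tissue identity the libraries matched their labels. Myh6, the heart muscle myosin, stood at 2567 to 3705 FPKM (fragments scaled to transcript length and library size) in the ventricle, Star, which carries cholesterol to steroid synthesis, at 4096 to 8001 FPKM in the adrenal gland, and Th, the first enzyme of noradrenaline synthesis, at 676 to 810 FPKM in the ganglion. The read depth behind the values is unknown. SHR replicate 3 stood apart from the other 7 libraries of its tissue on the second principal component in the ventricle (-20.1 against -3.71 to 14.2) and in the adrenal gland (-25.7 against -6.93 to 13.2). In the adrenal gland the markers of several cell types were lower in SHR. Of all genes tested there, 24.7% were lower and 16.5% higher in SHR. All 12 tested leukocyte markers were lower (summed level 182 to 276 FPKM in SHR and 407 to 550 in WKY), as were 8 of 10 fibroblast markers (65.8 to 147 against 173 to 227), 9 of 10 endothelial markers (123 to 185 against 215 to 236) and 7 of 8 markers of sympathetic neurons and chromaffin cells (833 to 1410 against 1680 to 1940). Of 5 tested markers of the adrenal cortex 2 were higher and none lower (27000 to 27700 against 24600 to 26500). Fewer cells of a type and less RNA per cell cannot be told apart in such bulk samples.

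The secreted collagenases and the stromelysins Mmp3 and Mmp10 stayed at or near the floor in all 3 tissues. Of the 69 genes with values, 22 stayed under 1 FPKM in every library, among them Mmp9, whose highest value was 0.24 FPKM. The other 47 reached 1 FPKM in at least 1 library. Mmp2, the other gelatinase, which cuts denatured collagen, was well above the floor, with 62.3 ± 8.97 FPKM in the ventricle and 70.2 ± 7.28 in the ganglion (SD, n = 8 libraries of both strains), but 4.32 ± 0.601 in the adrenal gland.

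A run of 10 Mmp genes that follow each other without another protein-coding gene between them in the RefSeq gene order of build GRCr8 (Mmp13, Mmp12, Mmp1b, Mmp3, Mmp1, Mmp10, Mmp8, Mmp27, Mmp20 and Mmp7) was almost silent. Of these, 9 have values and only Mmp12, the macrophage elastase, ever reached 1 FPKM, with a highest value of 1.26. The stretches before the starts of 5 of them are shown because most genes of the run hold AP-1 letters, the site of Fos and Jun proteins, close to the start, and few other members do. Capitals mark the AP-1 letters TGANTCA and the TATA letters TATAAA, searched on both strands, in 110 bases up to the start, from RefSeq, build GRCr8, all on the + strand of chromosome 8.
Mmp13, chr8:12782719-12782828 (+): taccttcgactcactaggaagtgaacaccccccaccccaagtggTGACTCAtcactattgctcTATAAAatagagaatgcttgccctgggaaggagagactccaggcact
Mmp12, chr8:12866542-12866651 (+): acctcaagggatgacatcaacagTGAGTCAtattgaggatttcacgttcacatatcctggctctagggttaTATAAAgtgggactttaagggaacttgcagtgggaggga
Mmp3, chr8:12925171-12925280 (+): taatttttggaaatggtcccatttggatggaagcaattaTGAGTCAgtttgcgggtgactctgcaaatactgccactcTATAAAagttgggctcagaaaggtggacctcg
Mmp10, chr8:12974597-12974706 (+): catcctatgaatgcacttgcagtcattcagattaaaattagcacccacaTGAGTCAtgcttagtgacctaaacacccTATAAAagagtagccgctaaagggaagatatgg
Mmp7, chr8:13132933-13133042 (+): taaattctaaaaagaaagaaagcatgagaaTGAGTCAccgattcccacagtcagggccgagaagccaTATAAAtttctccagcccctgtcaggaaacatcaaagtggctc

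Within 250 bases before the start, the AP-1 letters stood in 7 of the 10 genes of this run and in 1 of the 44 other members with a promoter window. Of 27457 rat genes with such a window 6.99% held them. The TATA letters stood in 8 of the 10, against 14.1% of all genes. These are exact matches of letters, near matches were not counted, and they say nothing of which factor binds. The genes of the run are also copies of a common ancestor and so are not independent.

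Timp3 and Timp2 were the most abundant members over the 3 tissues. Timp3 averaged 160 ± 12.4 FPKM in the adrenal gland, 123 ± 23 in the ganglion and 101 ± 8.94 in the ventricle (SD, n = 8), and no pair of tissues differed by the log2 difference of 1 that was required for a tissue call. Timp2, which inhibits MMPs and takes part in the activation of Mmp2 by Mmp14, stood at 169 ± 9.69 FPKM in the ganglion, 81.2 ± 13.1 in the ventricle and 11.6 ± 3.99 in the adrenal gland. Timp4, best known from the heart, averaged 48.3 ± 16.4 FPKM in the ventricle and 5.08 ± 2.71 and 1.89 ± 0.618 in the adrenal gland and ganglion. Timp1 lay closer together, at 27.1 ± 3.86 FPKM in the adrenal gland, 20.3 ± 15.8 in the ventricle and 16.2 ± 2.01 in the ganglion. Averaged over the strains, ventricle and ganglion did not differ (log2 difference of levels -0.03, SE 0.14, adjusted p = 0.865). That average hides opposite orders in the strains. WKY held 9.38 ± 1.98 FPKM in the ventricle and 15 ± 1.62 in the ganglion, and SHR held 31.1 ± 16.1 and 17.4 ± 1.68.

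Among the 6 most abundant members were Adam15 and Adam19 in the ventricle (38.6 ± 5.07 and 36.3 ± 4.87 FPKM), Adam17 in the adrenal gland (26.7 ± 2.68 FPKM) and Adam10 in the ganglion (30 ± 2.01 FPKM). A mean level of at least 10 FPKM was reached by 18 members in the ventricle, 10 in the adrenal gland and 15 in the ganglion. In limma fits over all 24 libraries, 23 of the 41 tested members differed between adrenal gland and ventricle by a log2 difference of at least 1 at an adjusted p under 0.05 (background 35.3% of all genes tested), 5 higher (background 19.7%) and 18 lower (background 15.6%) in the adrenal gland. Ganglion and ventricle differed in 20 of 41 (background 41.2%), with 9 higher (background 23.3%) and 11 lower (background 17.9%) in the ganglion. Adrenal gland and ganglion differed in 23 of 41 (background 41.3%), 9 higher (background 20.2%) and 14 lower (background 21.1%) in the adrenal gland. These 3 comparisons share libraries. By the same rule, 9 of the 41 members were higher in the ventricle than in both other tissues (background 10.1%), 7 in the ganglion (background 15.6%) and 4 in the adrenal gland (background 10.2%).

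The ventricle-high members were mostly ADAMTS and ADAMTS-like genes, families that also made up a large part of the tested members. Adamts19 stood at 8.79 ± 0.896 FPKM in the ventricle against 0.005 ± 0.00535 in the adrenal gland and 0.025 ± 0.0169 in the ganglion. Adamts7, a protease of cartilage oligomeric matrix protein, averaged 23.6 ± 4.58 FPKM in the ventricle against 1.18 ± 0.379 and 2.63 ± 0.395. The others were Adam1a, Adam33, Adamts1, Adamts12, Adamtsl4, Adamtsl5 and Timp4. High in the adrenal gland were Adam9, a membrane sheddase (61.6 ± 7.57 FPKM against 21.6 ± 1.97 in the ventricle and 13.4 ± 1.17 in the ganglion), Mmp14, the membrane enzyme that activates Mmp2 (58.3 ± 9.33 against 14.4 ± 4.33 and 14.5 ± 2.55), Mmp19 (28.6 ± 7.77 against 3.1 ± 0.328 and 3.83 ± 0.647) and Adam11. In the ganglion they were Adam22 and Adam23, protease-dead ADAMs of neurons that bind secreted LGI proteins, the membrane-type genes Mmp15, Mmp16, Mmp17 and Mmp24, and Timp2. Adam23 averaged 40.5 ± 7.85 FPKM there against 1.61 ± 0.336 in the ventricle and 4.39 ± 1.88 in the adrenal gland. Mmp15 averaged 74.6 ± 2.64 FPKM in the ganglion, 27.4 ± 8.36 in the ventricle and 3.69 ± 0.805 in the adrenal gland.

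**Figure D1:**
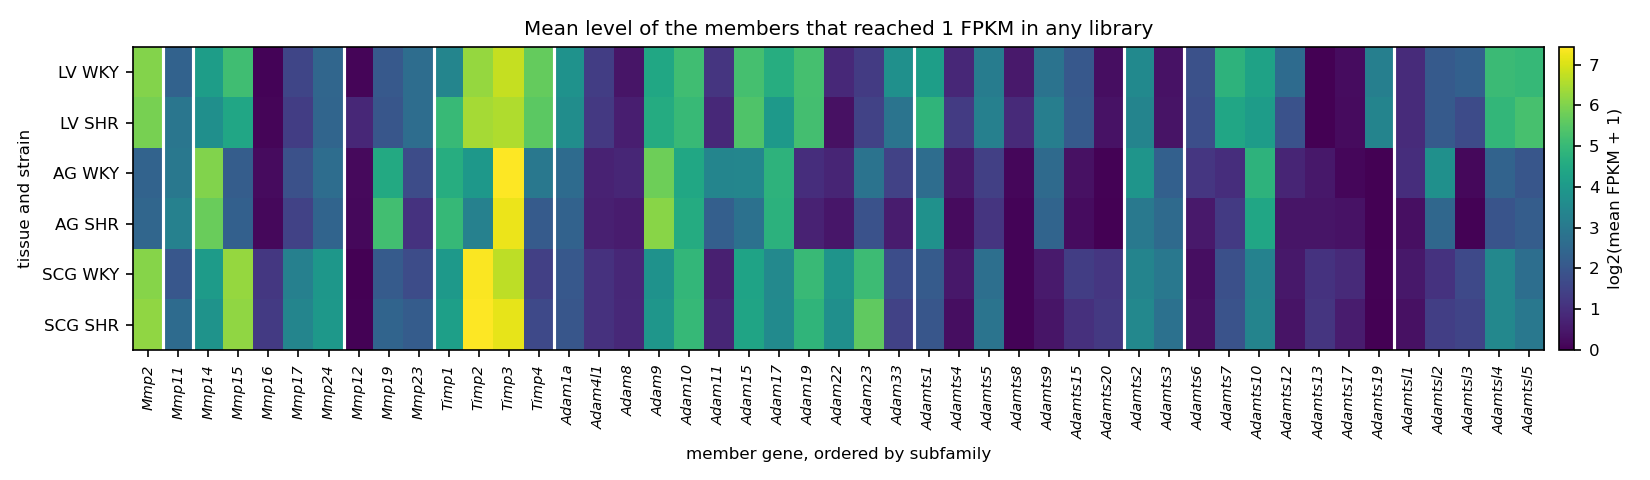
Mean level of the 47 members that reached 1 FPKM in any library, as log2(mean FPKM + 1) by colour, with 1 row per tissue and strain (mean of 4 libraries) and 1 column per gene. White lines separate subfamilies. Timp3 is among the brightest columns in every row, Timp2 is bright in the ventricle (LV) and ganglion (SCG) but not in the adrenal gland (AG), and Adamts19 is above the floor in the ventricle rows only.

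Strain differences were tested for the 36 members of the ventricle, 30 of the adrenal gland and 36 of the ganglion that had at least 1 FPKM in at least 4 of the 8 libraries, in a fit over all genes of the tissue. A difference is the SHR mean less the WKY mean of log2(FPKM + 1), a scale that understates the change of low genes. In the ventricle 11 of 36 members differed (background 21.2%), 4 higher (background 9.20%) and 7 lower (background 12.0%). The adrenal gland had 17 of 30 that differed (background 41.2%), 4 higher (background 16.5%) and 13 lower (background 24.7%). Without the filter on low values, 30 of 66 adrenal members differed (30.5% of all genes then tested). In the ganglion 3 of 36 differed (background 10.8%), 2 higher (background 6.37%) and 1 lower (background 4.43%). The median log2 difference of the tested members was -0.1 in the ventricle, -0.26 in the adrenal gland and 0.07 in the ganglion, beside -0.03, -0.04 and 0.01 over all genes tested. The SHR and WKY libraries did not overlap for 11 members in the ventricle (24.8% of all genes), 15 in the adrenal gland (39.4%) and 5 in the ganglion (17.2%). In all, 25 members differed in at least 1 tissue. Without SHR replicate 3, the library that stood apart, 7 of the 11 ventricular members still passed (not Timp3, Adamts7, Adamtsl5 and Mmp11), and 16 of the 17 adrenal members did (not Mmp24). The ventricular count was also 7 without SHR replicate 1 or WKY replicate 1.

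All 4 TIMPs were tested in every tissue. Timp1, a soluble inhibitor of most MMPs, was higher in SHR in the ventricle and the adrenal gland. In the ventricle it stood at 54.65, 26.61, 18.14 and 25.15 FPKM in the 4 SHR libraries and at 7.56, 7.86, 11.57 and 10.54 in the 4 WKY libraries. The groups did not overlap, and SHR replicate 1 was well above the other SHR libraries. The log2 difference was 1.53 (SE 0.31, adjusted p = 0.0131), and without SHR replicate 1 it was 1.23 (adjusted p = 0.00384, the lowest of a range up to 0.0427 over the left-out libraries). In the adrenal gland the SHR libraries were at 30.53, 30.2, 29.35 and 32.28 FPKM and the WKY libraries at 22.52, 24.1, 23.75 and 24, a smaller but tight gap (log2 difference 0.36, SE 0.05, adjusted p = 0.000677). In the ganglion, levels of 17.4 ± 1.68 in SHR and 15 ± 1.62 FPKM in WKY overlapped and gave a log2 difference of 0.21 that did not pass (adjusted p = 0.169). The strain difference in the ventricle exceeded that in the adrenal gland (difference of log2 differences, adrenal gland minus ventricle, -1.17, SE 0.28, adjusted p = 0.00293) and that in the ganglion (ganglion minus ventricle -1.32, SE 0.28, adjusted p = 0.00295).

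Timp3, the inhibitor that binds the matrix and also blocks Adam17 and ADAMTS enzymes, went in opposite directions. In the ganglion the SHR libraries stood at 148.03, 149.75, 138.64 and 137.06 FPKM and the WKY libraries at 105.04, 100.18, 94.27 and 107.22. Every SHR library was above every WKY library (log2 difference 0.49, SE 0.05, adjusted p = 0.000137). In the ventricle the order was the other way round, with 90.93, 98.27, 88.54 and 94.61 FPKM in SHR and 109.86, 110.88, 102.07 and 109.84 in WKY (log2 difference -0.21, SE 0.06, adjusted p = 0.0214). Adrenal levels averaged 149 ± 6.99 FPKM in SHR and 170 ± 4.49 in WKY, without overlap (-0.19, SE 0.05, adjusted p = 0.0149). The ventricular call was lost on leaving out replicate 1 or 3 of SHR or replicate 1 or 2 of WKY (adjusted p 0.0538 to 0.0645). The adrenal call was lost with median-of-ratios scaling (-0.12, adjusted p = 0.142) and with quantile normalization (-0.12, adjusted p = 0.0799). The strain difference of the ganglion differed from that of the ventricle (0.71, SE 0.07, adjusted p = 1.4e-07) and from that of the adrenal gland (adrenal gland minus ganglion -0.68, SE 0.07, adjusted p = 1.19e-07).

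Timp2 was lower in SHR in the adrenal gland, at 10.02, 7.07, 6.19 and 11.21 FPKM against 10.28, 15.38, 16.3 and 16.16 in WKY. The groups overlapped through WKY replicate 1, which stood below the SHR maximum. The log2 difference was -0.7 (SE 0.2, adjusted p = 0.0194). Without SHR replicate 3, the lowest library, it was -0.57 (adjusted p = 0.0407), and the call was lost when SHR replicate 2, WKY replicate 3 or WKY replicate 4 was left out (range of adjusted p 0.0506 to 0.0566). In the ventricle Timp2 averaged 86.2 ± 9.01 FPKM in SHR and 76.1 ± 15.9 in WKY and did not pass (0.19, SE 0.13, adjusted p = 0.342), but passed without WKY replicate 4 (0.32, adjusted p = 0.0374). The ganglion held 172 ± 9.48 and 166 ± 10.2 FPKM (log2 difference 0.05, SE 0.05, adjusted p = 0.62). Timp4 passed in no tissue. In the ventricle its libraries ranged from 19.66 to 63.83 FPKM in SHR and from 33.29 to 69.11 in WKY (-0.2, SE 0.4, adjusted p = 0.758), and in the adrenal gland it averaged 3.36 ± 1.64 and 6.8 ± 2.57 FPKM (-0.88, SE 0.37, adjusted p = 0.0873). Its lowest value in both tissues was SHR replicate 3, and without that library the ventricular difference was 0.16 (adjusted p = 0.711) and the adrenal difference -0.55 (adjusted p = 0.125).

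**Figure D2:**
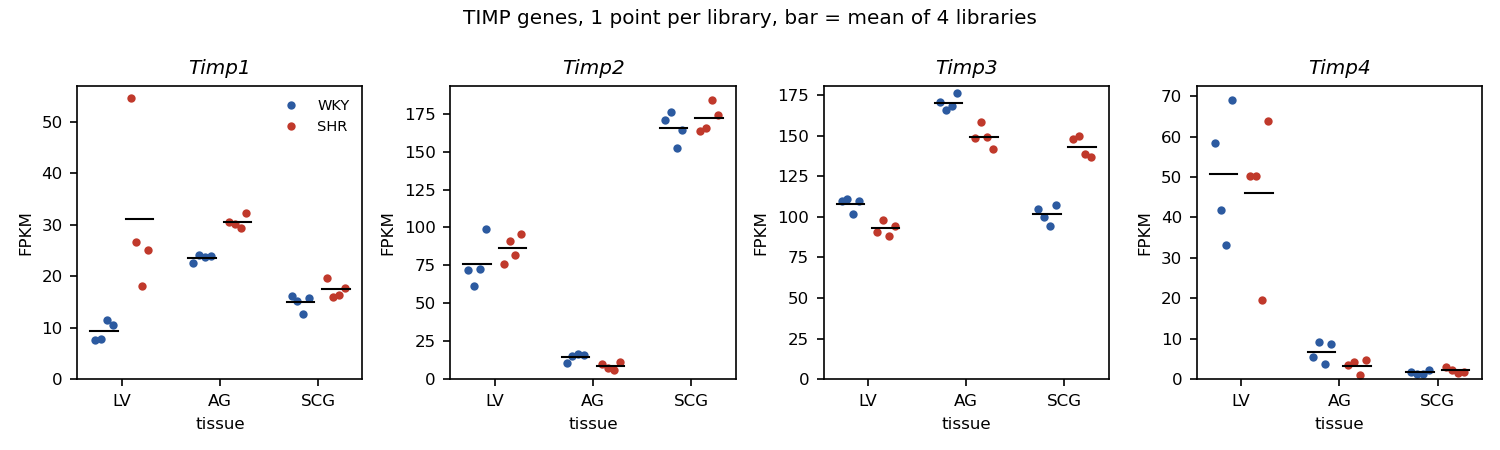
FPKM of the 4 Timp genes by tissue, with 1 point per library, WKY in blue and SHR in red, and a bar at the mean of 4 libraries. Timp1 is higher in SHR in the ventricle (LV) and adrenal gland (AG). Timp3 is lower in SHR there and higher in the ganglion (SCG), where SHR averages 143 and WKY 102 FPKM.

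The promoters of Timp1 and Timp3 are shown because the genes' calls in ventricle and adrenal gland, unstable for Timp3, had opposite directions. Each is the 250 bases before the start, 5′ to 3′ on the gene's own strand, from RefSeq, build GRCr8, with GC boxes (GGGCGG, either strand) in capitals.
Timp1, chrX:3771123-3771372 (-): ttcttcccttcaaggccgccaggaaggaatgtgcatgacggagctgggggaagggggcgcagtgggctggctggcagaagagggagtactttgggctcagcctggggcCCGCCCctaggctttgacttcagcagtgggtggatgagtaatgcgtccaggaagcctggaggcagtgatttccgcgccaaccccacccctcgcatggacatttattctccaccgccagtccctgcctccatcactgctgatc
Timp3, chr7:19459559-19459808 (-): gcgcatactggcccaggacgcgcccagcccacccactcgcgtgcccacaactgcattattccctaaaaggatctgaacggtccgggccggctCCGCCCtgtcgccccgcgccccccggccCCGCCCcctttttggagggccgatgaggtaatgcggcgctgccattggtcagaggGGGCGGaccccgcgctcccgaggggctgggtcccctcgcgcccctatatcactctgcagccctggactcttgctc

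Timp1 held 1 GC box and Timp3 held 3, and neither held the exact letters TGANTCA or TATAAA in this window. Near matches were not counted, such as TGAGTAA in the Timp1 stretch, which differs from the AP-1 letters by 1 base. The absence of the exact letters therefore does not show that Timp1 lacks an AP-1 site. GC boxes stood in 27 of the 54 members with a window and in 33.5% of all genes. In the same gene order Timp1 lies within the synapsin gene Syn1, Timp3 within Syn3 and Timp4 within Syn2. Whether counting used strand is not given in the sources used here, so the host genes' levels are set beside them. Syn1 did not differ in the ganglion (101 ± 2.82 FPKM in SHR, 102 ± 7.61 in WKY, adjusted p = 0.919) and was lower in SHR in the adrenal gland (0.728 ± 0.176 against 1.27 ± 0.132, log2 difference -0.4, SE 0.1, adjusted p = 0.0131), where Timp1 was higher. Syn3 stood at 2.64 ± 0.616 FPKM in SHR and 2.46 ± 0.434 in WKY in the ganglion, far below Timp3. Syn2 was well above Timp4 in the ganglion and the adrenal gland, at 468 ± 29.4 and 448 ± 28.8 FPKM in the former (adjusted p = 0.567) and at 33 ± 3.52 and 23.8 ± 0.827 in the latter. In the adrenal gland it was higher in SHR (0.45, SE 0.08, adjusted p = 0.00153), while Timp4 averaged 3.36 and 6.8 FPKM.

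Among the MMPs, Mmp15 had the clearest change in the ventricle. This membrane-type enzyme stood at 23.19, 19.66, 17.99 and 19.35 FPKM in SHR and at 38.68, 36.73, 33.42 and 30.18 in WKY. All SHR libraries were below all WKY libraries (log2 difference -0.76, SE 0.1, adjusted p = 0.000583). Neither of the other tissues passed, and the ventricular difference was distinct from that of the adrenal gland (adrenal gland minus ventricle 0.86, SE 0.16, adjusted p = 0.000316) and of the ganglion (ganglion minus ventricle 0.7, SE 0.16, adjusted p = 0.00546).

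Mmp19, a secreted enzyme that cuts basement membrane proteins, was higher in SHR in the adrenal gland, the tissue where it is most abundant. Its libraries stood at 38, 33.03, 38.44 and 32.88 FPKM in SHR and at 24.4, 20.76, 21.14 and 20.55 in WKY. The groups did not overlap (log2 difference 0.69, SE 0.08, adjusted p = 0.000169). The ventricle, at 2.98 ± 0.382 and 3.22 ± 0.253 FPKM, showed no such gap, and the adrenal difference was larger than the ventricular difference by 0.78 (SE 0.13, adjusted p = 9.71e-05) and larger than that of the ganglion by 0.44 (SE 0.13, adjusted p = 0.0158). The latter call was lost with a pseudocount of 0.1 (0.4, adjusted p = 0.0665). In the ganglion Mmp19 averaged 4.24 ± 0.333 and 3.43 ± 0.656 FPKM and did not pass (0.25, SE 0.1, adjusted p = 0.161), but passed without WKY replicate 4 (0.35, adjusted p = 0.0308).

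The other adrenal MMPs that passed were lower in SHR. Mmp23, a membrane-anchored enzyme, averaged 1.14 ± 0.114 FPKM in SHR against 2.34 ± 0.521 in WKY without overlap (-0.63, SE 0.13, adjusted p = 0.00357). Mmp24 and Mmp17 differed by -0.25 and -0.37 on the log2 scale (adjusted p = 0.0341 and 0.0497), and lost the call in 9 and 11 of 14 alternatives (adjusted p 0.0572 to 0.116 and 0.0521 to 0.269), among them both other scalings and most left-out libraries. Mmp14 averaged 52.7 ± 7.9 FPKM in SHR and 63.9 ± 7.54 in WKY there and did not pass (-0.28, SE 0.12, adjusted p = 0.0893). Mmp17 in the ventricle, at 1.53 ± 0.247 and 1.95 ± 0.123 FPKM, did not pass either (-0.23, SE 0.1, adjusted p = 0.127). Mmp2 passed in no tissue. In the ventricle it averaged 59.4 ± 9.25 FPKM in SHR against 65.3 ± 8.85 in WKY (-0.14, SE 0.12, adjusted p = 0.471).

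Mmp11, also called stromelysin 3, was at 6.86, 7.26, 6.29 and 6.07 FPKM in the SHR ventricle and at 4.16, 2.08, 5.64 and 4.29 in WKY (0.65, SE 0.2, adjusted p = 0.0481). The groups did not overlap, yet the call was lost in 9 of 14 alternatives (adjusted p 0.0585 to 0.104), among them leaving out any SHR library or WKY replicate 1 or 4. It overlaps Chchd10, a mitochondrial gene far more abundant in the ventricle (600 ± 45.4 FPKM in SHR, 775 ± 20.4 in WKY, log2 difference -0.37), which moved the other way. Mmp12 was too low to be tested. It stood at 0.79, 0.59, 0.5 and 1.26 FPKM in the SHR ventricle and at 0, 0.09, 0.21 and 0 in WKY, without overlap, and the authors' deposited table gives it a log2 ratio of 3.43 (q = 0.000281). Mmp12 was not the only such gene. Adam22, also too low to be tested in the ventricle, has a log2 ratio of -1.58 in that table (q = 3.48e-09). Adam8, Adam12, Adamts4 and Adamts8, likewise untested there, are called higher in SHR in it (q 0.0213 to 0.0414). Beside the Mmp12 values, 5 of 14 tested leukocyte markers were higher in the SHR ventricle (background 9.20%) and none lower (summed level 503 to 738 FPKM in SHR, 475 to 603 in WKY). The part of these cells in the Mmp12 values was not tested.

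Of the ADAMs, 2 of 10 tested were lower and none higher in the SHR ventricle (background of either direction 21.2%). In the adrenal gland 4 of 8 were lower and 1 higher (background 41.2%), and in the ganglion 1 of 10 was lower and 1 higher (background 10.8%). Adam17, the sheddase of tumour necrosis factor and of several EGF receptor ligands, was lower in SHR in the ventricle. It stood at 17.59, 13.04, 15.94 and 15.15 FPKM in SHR and at 25.84, 24.45, 22.71 and 21.24 in WKY. The groups did not overlap (-0.58, SE 0.09, adjusted p = 0.00222). The adrenal gland and the ganglion did not share this difference (adrenal gland minus ventricle 0.55, SE 0.14, adjusted p = 0.00336, and ganglion minus ventricle 0.63, SE 0.14, adjusted p = 0.00303). Adam10, the related sheddase of Notch and other membrane proteins, averaged 30.9 ± 2.25 FPKM in the SHR ventricle and 34.9 ± 2.61 in WKY and did not pass (-0.17, SE 0.07, adjusted p = 0.131).

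Adam33, an ADAM of mesenchymal cells, was lower in SHR in both the ventricle and the adrenal gland. Ventricular libraries stood at 8.63, 7.08, 3.76 and 5.45 FPKM in SHR and at 11.82, 10.9, 15.04 and 10.85 in WKY. The lowest was SHR replicate 3, and the groups were apart (-0.9, SE 0.2, adjusted p = 0.0146). Without that library the difference was -0.72 (adjusted p = 0.0137). Adrenal values were 0.45, 0.46, 0.38 and 0.69 against 1.34, 1.83, 2.16 and 1.73 FPKM (-0.88, SE 0.12, adjusted p = 0.000417), and without SHR replicate 3 the difference was -0.85. Adam33 met the filter on low values there only through the WKY libraries. It was not tested when a WKY library was left out, and its adrenal call rests on values near the floor. Of the 10 tested fibroblast markers, 8 were lower in the SHR adrenal gland (background 24.7%), while in the ventricle 2 were higher (background 9.20%) and none lower. Their part in the Adam33 values was not tested.

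The protease-dead neuronal Adam23 went in opposite directions in the adrenal gland and the ganglion. In the ganglion it stood at 47.25, 47.8, 46.77 and 49.42 FPKM in SHR and at 33.72, 32.15, 34.1 and 32.98 in WKY, a wide gap beside the spread within each strain (0.51, SE 0.04, adjusted p = 1.31e-05). In the adrenal gland SHR libraries were at 2.7, 2.34, 2.6 and 3.06 FPKM and WKY libraries at 5.46, 6.6, 6.42 and 5.98 (-0.95, SE 0.09, adjusted p = 7.89e-05). These differences were themselves different (adrenal gland minus ganglion -1.47, SE 0.13, adjusted p = 1.67e-08). Adam11, another protease-dead ADAM of neural tissue, was also lower in the SHR adrenal gland, at 3.52, 4.73, 2.75 and 3.97 against 9.24, 11.94, 8.62 and 7.58 FPKM (-1.13, SE 0.16, adjusted p = 0.000503, and -1.02 without SHR replicate 3). Summed markers of sympathetic neurons and chromaffin cells were 833 to 1410 FPKM in the SHR and 1680 to 1940 in the WKY adrenal gland, but 4940 to 5240 and 4900 to 5150 in the ganglion. The part of these cells in the adrenal values was not tested.

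Adam9 was higher in the SHR adrenal gland, at 70.89, 68.67, 68.88 and 64.83 against 58.45, 55.75, 51.97 and 53.58 FPKM (0.31, SE 0.05, adjusted p = 0.00182). Adam15, an ADAM of endothelial and other cells that carries an integrin-binding motif, was lower there, at 5.85 ± 0.391 against 9.59 ± 0.854 FPKM (-0.63, adjusted p = 0.000449). Neither pair of groups overlapped. Endothelial markers were lower in the same SHR adrenal libraries, and their part in the Adam15 values was not tested. Adam19, a sheddase of neuregulin, was slightly lower in the SHR ganglion, at 28.28, 27.64, 28.31 and 27.55 against 30.76, 32.41, 33.64 and 30.38 FPKM (-0.18, SE 0.04, adjusted p = 0.0216). That call was lost when SHR replicate 2 or 4 or WKY replicate 2 or 3 was left out (adjusted p 0.0586 to 0.0663). Adam22, the paralog of Adam23, averaged 12 ± 0.853 FPKM in the SHR ganglion and 13.4 ± 0.723 in WKY and did not pass (-0.15, SE 0.06, adjusted p = 0.162).

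**Figure D3:**
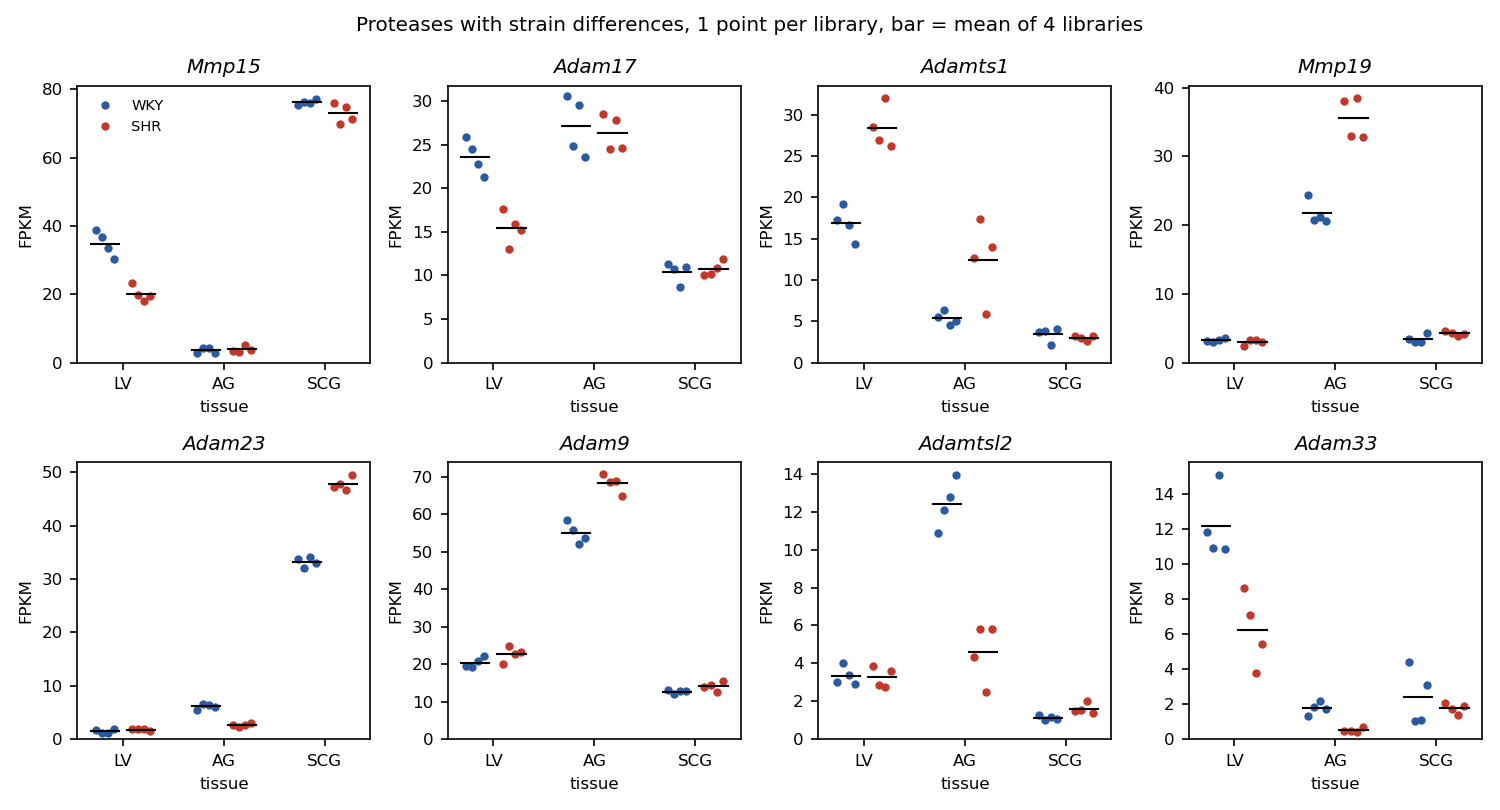
FPKM of 8 Mmp, ADAM, ADAMTS and ADAMTS-like genes by tissue, with 1 point per library, WKY in blue and SHR in red, and a bar at the mean of 4 libraries. Adam23 and Adamtsl2 among them are not active proteases. Mmp15, Adam17 and Adam33 are lower in SHR in the ventricle (LV), Mmp19 and Adam9 are higher in SHR in the adrenal gland (AG), and Adam23 is lower in the adrenal gland and higher in the ganglion (SCG).

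Adamts1, which cuts versican and aggrecan, was the only tested ADAMTS gene that passed as higher in SHR. In the ventricle it stood at 28.5, 26.98, 31.98 and 26.2 FPKM in SHR and at 17.28, 19.24, 16.66 and 14.34 in WKY. The groups were well apart (0.72, SE 0.09, adjusted p = 0.000725). Adrenal levels were 12.71, 17.32, 5.83 and 14.04 FPKM in SHR and at 5.54, 6.31, 4.53 and 5.03 in WKY (1, SE 0.27, adjusted p = 0.0186). There SHR replicate 3 lay inside the WKY range, and without it the difference was 1.3 (adjusted p = 0.000127), while leaving out WKY replicate 3 or 4 ended the call (adjusted p = 0.0524 and 0.0503). Versican, its substrate Vcan, was also higher in the SHR ventricle (9.8 ± 2.79 against 4.39 ± 0.939 FPKM, 0.98, SE 0.19, adjusted p = 0.00687). Among ADAMTS genes too low to be tested, the authors' deposited table calls Adamts4 (0.95) and Adamts8 (1.08) higher in the SHR ventricle. In it Adamts17 is higher in the SHR adrenal gland (1.6) and lower in the ganglion (-0.81). Adamts4, Adamts6 and Adamts12 are called lower in the SHR adrenal gland there.

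Other ADAMTS genes that passed were lower in SHR. Adamts2, which removes the N-terminal propeptide of procollagen, stood at 7.92, 7.73, 5.51 and 7.01 FPKM in the SHR adrenal gland and at 16.09, 12.37, 14.94 and 10.98 in WKY (-0.86, SE 0.14, adjusted p = 0.00107, and -0.76 without SHR replicate 3). Adamts10, an enzyme of fibrillin microfibrils, averaged 20 ± 1.89 and 27.2 ± 2.87 FPKM there (-0.43, SE 0.09, adjusted p = 0.00452). Adamts12 stood at 2.72, 1.99, 3.35 and 2.67 FPKM in the SHR ventricle and at 3.45, 5.54, 6.07 and 5.02 in WKY (-0.7, SE 0.16, adjusted p = 0.0109). None of these 3 pairs of groups overlapped. The lower fibroblast markers of the SHR adrenal gland stand beside the Adamts2 and Adamts10 values, and their part was not tested. Adamts7, the paralog of Adamts12, averaged 20.2 ± 1.49 and 26.9 ± 4.12 FPKM in the ventricle (-0.38, SE 0.11, adjusted p = 0.031). WKY replicate 4, at 20.78, fell inside the SHR range, and the call was lost in 7 of 14 alternatives (adjusted p 0.0518 to 0.0854), among them leaving out SHR replicate 1, 3 or 4 or WKY replicate 1, 2 or 3. Adamts3, the procollagen enzyme closest to Adamts2, averaged 5.79 ± 0.497 FPKM in the SHR ganglion and 6.95 ± 0.428 in WKY and did not pass (-0.23, SE 0.07, adjusted p = 0.0636).

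Of the ADAMTS-like genes, 1 of 4 tested was higher and 1 lower in the ventricle (background of either direction 21.2%). None of 4 passed in the ganglion (background 10.8%), and 2 of 3 were lower in the adrenal gland (background 24.7%). Adamtsl2, which binds fibrillin and a latent TGF-beta binding protein, was lower in SHR in that gland, with 4.32, 5.81, 2.51 and 5.82 FPKM in SHR and 10.88, 12.11, 12.76 and 13.96 in WKY (-1.3, SE 0.2, adjusted p = 0.00101). Without SHR replicate 3, its lowest library, the difference was -1.09 (adjusted p = 0.000201). The adrenal difference was distinct from that of the ventricle (-1.28, SE 0.22, adjusted p = 8.42e-05) and of the ganglion (-1.6, SE 0.22, adjusted p = 7.63e-06). Adamtsl4, another fibrillin-binding gene, averaged 2.84 ± 0.35 and 4.16 ± 0.186 FPKM there (-0.43, SE 0.09, adjusted p = 0.00507). In the ventricle Adamtsl3 was lower, at 1.8, 2.38, 2.3 and 2.53 against 4.74, 3.22, 3.15 and 4.42 FPKM (-0.58, SE 0.13, adjusted p = 0.0113). Adamtsl5 was higher there, at 37.9 ± 3.67 against 30.8 ± 2.22 FPKM (0.29, SE 0.08, adjusted p = 0.0304), a call lost without any 1 of 6 libraries (replicates 1, 3 and 4 of SHR and replicates 1, 2 and 4 of WKY), with an adjusted p of 0.0504 to 0.0796. In the ganglion Adamtsl2 averaged 1.6 ± 0.276 and 1.12 ± 0.108 FPKM and did not pass (0.3, SE 0.09, adjusted p = 0.073).

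**Figure D4:**
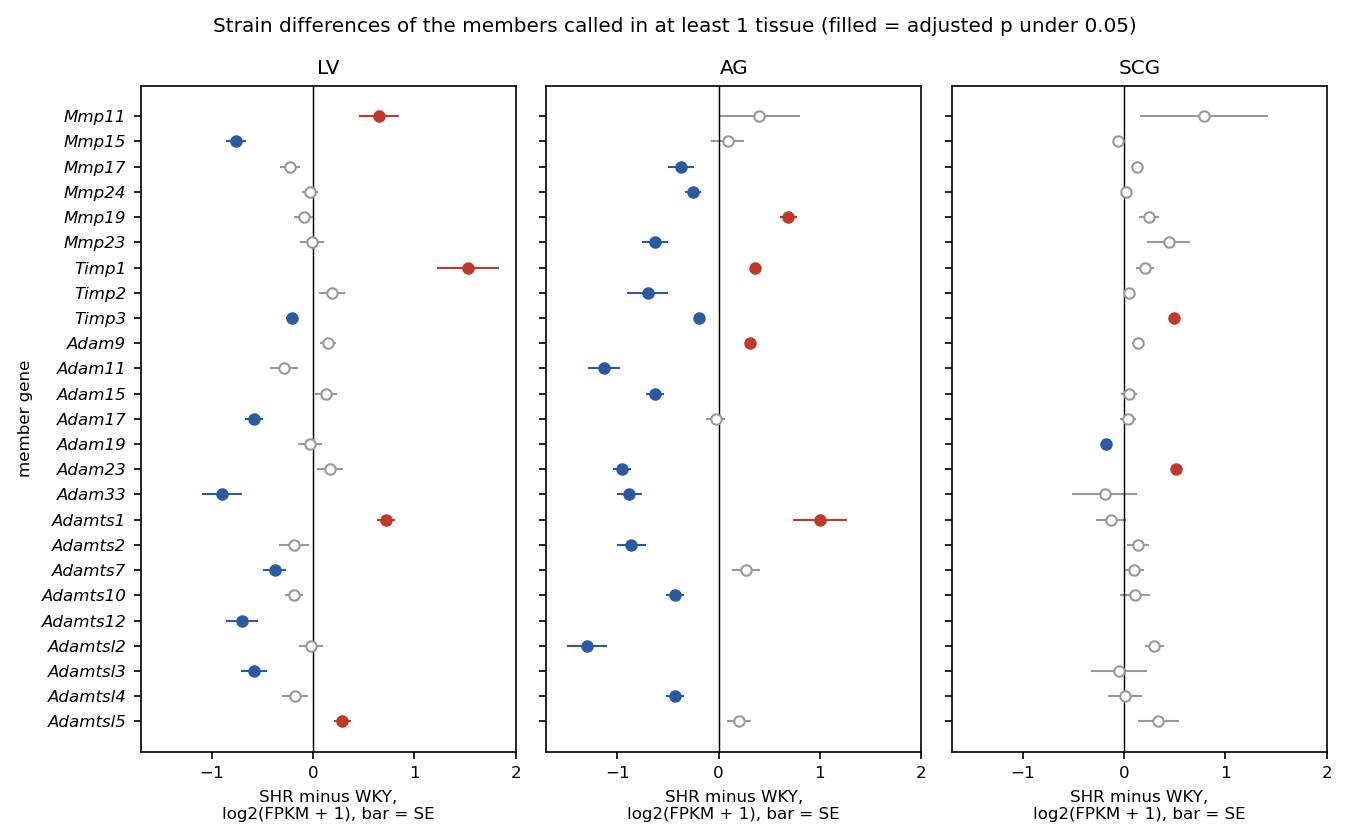
Strain difference (SHR less WKY, log2 of FPKM + 1) with its standard error, for the 25 members that passed in at least 1 tissue, with 1 panel per tissue. Filled points passed at an adjusted p under 0.05, red for higher and blue for lower in SHR, and open grey points did not pass. The adrenal panel (AG) has 13 blue points, the ventricular panel (LV) 7 and the ganglion panel (SCG) 1.

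The strain difference itself differed between adrenal gland and ventricle for 14 of 41 members (background 34.5%), between ganglion and ventricle for 6 of 41 (background 14.4%) and between adrenal gland and ganglion for 15 of 41 (background 29.8%). The members' shares were 34.1%, 14.6% and 36.6%. The contrasts share libraries, so their calls are not independent of each other.

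Other genes of the same proteolytic system were taken from lists that were chosen with earlier results of these data known. In plasminogen activation, which feeds MMP activation, Plaur, the urokinase receptor, was higher in the SHR ventricle (6.38 ± 0.986 against 2.98 ± 0.355 FPKM, log2 difference 0.89, SE 0.11, adjusted p = 0.000544). Plat, the tissue-type activator, was higher there too (86.2 ± 9.07 against 68.6 ± 3.73 FPKM, 0.32, SE 0.08, adjusted p = 0.0183). Plat was also higher in the SHR adrenal gland (53.5 ± 14.3 against 29.6 ± 3.76 FPKM, 0.81), where Plgrkt rose too (0.35). There 2 of 7 tested genes were higher (background 16.5%) and none lower. In the ganglion Plat was lower (64.1 ± 2.24 against 80.2 ± 3.76 FPKM, -0.32, adjusted p = 0.00112), with Serpini1 the other of 2 lower genes among 6 (background 4.43%).

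Of the convertases and shedding partners, which mature ADAMs and carry them to the membrane, 6 of 12 tested were higher in the SHR adrenal gland (background 16.5%) and none lower (median log2 difference 0.39, beside -0.04 over all genes). Furin, the main convertase of these precursors, averaged 47.4 ± 5.67 against 32.7 ± 2.01 FPKM (0.52, SE 0.08, adjusted p = 0.00114). Pcsk5 (0.51), Pcsk6 (0.64) and Rhbdf2, the iRhom that escorts Adam17 (0.66, SE 0.09, adjusted p = 0.00044), were among the others. In the ventricle 3 of 11 were lower (background 12.0%) and none higher. The 3 were Tspan15, a partner of Adam10 (-0.47), Tspan5 (-0.41) and Pcsk7 (-0.27). In the ganglion 1 of 12, Tspan33, was lower (-0.39, background 4.43%).

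Inhibitors other than TIMPs, with clearance receptors and inducers, gave 2 higher (background 9.20%) and 3 lower (background 12.0%) of 10 in the ventricle. They gave 1 higher (background 16.5%) and 5 lower (background 24.7%) of 8 in the adrenal gland. The ganglion had 1 higher (background 6.37%) and 2 lower (background 4.43%) of 10. Thbs1, thrombospondin 1, had the largest ventricular rise of this list (21.5 ± 7.31 against 4.4 ± 1.19 FPKM, 2.04, SE 0.26, adjusted p = 0.00129). Cst3, the secreted cathepsin inhibitor cystatin C, fell in the ganglion from 1200 ± 82.6 FPKM in WKY to 501 ± 29.7 in SHR (-1.25, SE 0.06, adjusted p = 5.6e-07) and in the adrenal gland from 233 ± 22.4 to 91 ± 10.6 (-1.35, SE 0.09, adjusted p = 9.55e-06). Reck, a membrane-anchored MMP inhibitor, was higher in the SHR ganglion (0.41, adjusted p = 0.0341) and lower in the adrenal gland (-0.36, adjusted p = 0.0381).

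Matrix cathepsins gave 2 higher of 7 in the ventricle (background 9.20%), Ctsb (0.46) and Ctsz (0.52). In the adrenal gland 1 of 7, Ctsb, was higher (background 16.5%) and 5 were lower (background 24.7%). Among the lower, Ctss, a protease of antigen-presenting cells, stood at 13.7 ± 2.27 against 47.9 ± 6.17 FPKM (-1.74, SE 0.13, adjusted p = 1.36e-05). Ctss was the 1 lower gene of 7 in the ganglion (-1.06, adjusted p = 0.00288, background 4.43%). Proteoglycans and other ADAMTS substrates were lower in the adrenal gland in 4 of 5 tested (background 24.7%), Bcan (-1.45), Dcn (-1.06), Bgn (-0.83) and Fbn1 (-0.76). Vcan was the 1 higher gene of 5 in the ventricle (background 9.20%). Bcan (0.48) and Comp (0.46) were the 2 higher of 7 in the ganglion (background 6.37%). Of 4 tested astacin and other metalloproteases, Bmp1, a procollagen C-proteinase, rose (0.44) and Mme, neprilysin, fell (-1.04) in the adrenal gland (background of either direction 41.2%). None passed in the ventricle or ganglion. Leukocyte, fibroblast and endothelial markers were lower in the same SHR adrenal libraries, and their part in these values was not tested. Dcn is itself one of the fibroblast markers, so the substrate and fibroblast counts overlap.

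The authors' deposited table calls 17 of 64 members in the ventricle at a q under 0.05 (16% of all its genes), 26 of 66 adrenal members (31.7%) and 5 of 66 ganglion members (8.72%). It includes all 11 ventricular and all 3 ganglion members named here, and 14 of the 17 adrenal members. The adrenal members it does not call are Timp3 (log2 ratio -0.11, q = 0.191), Mmp17 (q = 0.139) and Mmp24 (q = 0.0587).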

How the data were processed

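Total RNA of 24 libraries was read on a BGISEQ-500 instrument after a KAPA RNA HyperPrep preparation, per the labels' protocols. The authors deposited FPKM values with 2 decimals, 1 column per library, per the file headers. The same deposited table holds the authors' log2 ratios and q-values, used only where named. Named without a role, per the submitters' processing notes, are the build Rnor_6.0 and the tools DESeq2 1.4.5, RSEM 1.3.1 and Bowtie2. Neither annotation nor read depth is given in the sources used here.

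Tests used limma 3.58.1 (R 4.3.3, trend and robust moderation) on log2(FPKM + 1). A gene entered a tissue's fit when 4 or more of its 8 libraries held at least 1 FPKM. Adjustment of the 2-sided p-values followed Benjamini and Hochberg over all genes tested, with a threshold of 0.05. Tissue contrasts and differences of strain differences came from 1 model of all 24 libraries, on genes with at least 1 FPKM in at least 4 libraries. Levels are means ± SD of 4 libraries unless an n is given, and SE is that of limma. The code was tested on simulated data.

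The members and lists were chosen with earlier results of these data known. Named were all Timp genes, members past a threshold, the 6 most abundant members of each tissue, up to 5 members of a tissue with an unadjusted p under 0.05 that did not pass, and up to 4 genes of each list and tissue. A result of the plasminogen list is not reported here. Other members named in the text, such as Mmp2, Mmp9 and Mmp12, were chosen after their values were seen. Another 9 members were blank in every library. At most 0.359% of genes had equal values in a pair of libraries of a group, so no library was counted as a repeat. Alternatives were other pseudocounts, filters, scalings and variance models, a replicate block, and each library left out in turn. RefSeq build GRCr8 gave promoter windows for 54 members and the gene order. It is not the build of the deposited values, and no genome of that build was used here.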

Additional observations from a re-analysis of the deposited data

Results flagged for a closer look

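Of 102 groups of 4 libraries examined for the named members, 6 held a library far from the other 3, where chance alone gives about 5. In the WKY ventricle these were Timp3 in replicate 3 (102.07 FPKM, the others 109.84 to 110.88), Adamts7 in replicate 4 (20.78, the others 28.6 to 29.58) and Mmp2 in replicate 2 (52.03, the others 69.26 to 70.04). In the WKY adrenal gland they were Timp2 in replicate 1 (10.28, the others 15.38 to 16.3), Mmp17 in replicate 2 (3.51, the others 2.18 to 2.39) and Mmp19 in replicate 1 (24.4, the others 20.55 to 21.14).

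The strain difference (SHR minus WKY on the log2 scale) differed between tissues, by an interaction contrast of limma over 24 libraries, in 35 cases. For adrenal gland minus ventricle the difference was positive for Mmp15 (0.86), Mmp19 (0.78), Adamts7 (0.65), Adam17 (0.55) and Adam10 (0.3). It was negative for Adamtsl2 (-1.28), Timp1 (-1.17), Adam23 (-1.12), Timp2 (-0.9), Adam11 (-0.83), Adam15 (-0.76), Adamts2 (-0.67), Adamts6 (-0.64) and Mmp23 (-0.62). The Mmp23 call was lost in 17 of 30 alternatives (adjusted p 0.0503 to 0.125). That of Adam11 was lost with a pseudocount of 0.1 (-0.76, adjusted p = 0.0708). Adamts6 was too low in the adrenal gland to be tested there.

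For ganglion minus ventricle it was positive for Timp3 (0.71), Mmp15 (0.7), Adam17 (0.63), Adamts12 (0.6) and Adam22 (0.37), and negative for Timp1 (-1.32). Adamts12 in the ganglion and Adam22 in the ventricle were too low to be tested there. The Adamts12 call was lost with a pseudocount of 0.1 (adjusted p = 0.259) and without replicate 3 of WKY in either tissue. The Adam22 call was lost with quantile normalization (0.27, adjusted p = 0.0883).

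For adrenal gland minus ganglion it was positive for Adamts1 (1.13), Adamts3 (0.51) and Mmp19 (0.44). It was negative for Adamtsl2 (-1.6), Adam23 (-1.47), Adam11 (-1.27), Mmp23 (-1.07), Adamts2 (-1), Timp2 (-0.76), Adamts6 (-0.72), Timp3 (-0.68), Adam15 (-0.67), Adamts10 (-0.53), Mmp17 (-0.5) and Mmp24 (-0.27). With a pseudocount of 0.1 the calls of Adamts3 (adjusted p = 0.101) and Mmp19 (adjusted p = 0.0665) were lost. Those of Mmp17 (adjusted p = 0.114) and Mmp24 (adjusted p = 0.137) were lost with quantile normalization. Adamts6 was too low to be tested in either tissue, and Adam11 in the ganglion. The 3 contrasts share libraries.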

How the results depend on the processing

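With 1 library left out, the number of members that passed was 7 to 11 (ventricle), 12 to 17 (adrenal gland) and 2 to 4 (ganglion). The ventricular count was 7 without SHR replicate 1, SHR replicate 3 or WKY replicate 1. Between tissues, the strain difference passed for 13 to 15 members (adrenal gland minus ventricle), 6 to 8 (ganglion minus ventricle) and 13 to 17 (adrenal gland minus ganglion). Without the filter on low values, 30 members passed in the adrenal gland (30.5% of all genes), 24 for adrenal gland minus ventricle (26.2%) and 10 for ganglion minus ventricle (11.5%), with more members tested. Either other scaling gave 15 adrenal calls, 5 higher and 10 lower. Median-of-ratios scaling shifted the median log2 difference of all genes by 0.06 in the adrenal gland, 0.03 in the ventricle and -0.02 in the ganglion.

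Of 1760 alternatives of 86 single-member results, 1661 kept direction and side of the threshold, 88 lost the call, 4 gained it and 7 changed sign. The sign changes were in differences that did not pass, and their cause was not tested: Timp4 in the ventricle without SHR replicate 3 (0.16), Adam19 in the ventricle with median-of-ratios scaling (0.01) and without SHR replicate 1 or WKY replicate 1 (0.03 each), and Adam17 in the adrenal gland with median-of-ratios scaling (0.03) and without WKY replicate 1 (0.02) or 3 (0.01). With 1 library left out, these differences reached as low as -0.39, -0.14 and -0.1.

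Libraries of equal replicate number were at most weakly alike: the correlation of their deviations was -0.15 to 0.23 between strains (over 0.1 in 5 of 12 pairs) and -0.14 to 0.18 between tissues (3 of 24). Such correlations cannot show whether equal numbers come from the same rat or batch. A replicate block gave 9 calls in the ventricle, 16 in the adrenal gland and 3 in the ganglion, 15, 6 and 15 for the differences between tissues, and 23, 20 and 23 for the tissue levels. The block ended the calls of Timp1 (adjusted p = 0.0508) and Mmp11 in the ventricle and of Mmp17 and Mmp24 in the adrenal gland, and Timp4 in the adrenal gland passed with it (adjusted p = 0.00199). Depth is unknown, so values under 1 FPKM carry no stated counting error.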
